A study of Mus musculus with 6 samples.

Results

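The genes described here are those of the mouse major histocompatibility complex (MHC) and of antigen processing, measured by RNA-seq in alveolar type 2 (AT2) cells after deletion of Abca3, the lipid transporter of surfactant storage organelles. They comprise all 44 rows of the deposited count table whose symbol starts with H2-, and 13 further genes, Cd74, Ciita, B2m, Tap1, Tap2, Tapbp, Psmb8, Psmb9, Psmb10, Nlrc5, Erap1, Cd1d1 and Rfx5. Together they are 57 of the 23478 genes in the table. The 3 Abca3 cKO libraries and the 3 control libraries came from adult mice of mixed strain background, and all 6 were taken 6 days after tamoxifen from AT2 cells enriched by depleting other cells. The labels give neither the Cre line, the deleted exons nor the genotype of the controls, and do not say which alleles of the H2 genes the mice carried. Nor do they tie each replicate to an animal of its own, so the p-values measure the spread between these libraries, which may be technical.

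Class I molecules, made of a heavy chain and beta-2-microglobulin, display peptides from inside the cell to CD8+ T cells. The peptides are cut by the proteasome, carried into the endoplasmic reticulum by the Tap transporter and loaded there. Class II molecules pair an alpha and a beta chain, are escorted by the invariant chain Cd74 and display peptides from endosomes to CD4+ T cells; AT2 cells are among the few non-immune cells that carry them without inflammation. The heavy chain genes are among the most allele-rich of the mouse genome and resemble each other closely, so that reads of one can match another or fail to match a reference from another strain.

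The resemblance of the class I heavy chains is shown by 90 bases of coding sequence, read on the strand of each gene from GENCODE M21 transcripts (GRCm38) and lying within one exon in each. The stretch starts at base 676 of the H2-D1 coding sequence, and capitals mark bases that differ from H2-D1.
H2-D1, chr17:35265840-35265929, plus strand: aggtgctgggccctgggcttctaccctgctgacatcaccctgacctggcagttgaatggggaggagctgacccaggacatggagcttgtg
H2-K1, chr17:33997415-33997504, minus strand: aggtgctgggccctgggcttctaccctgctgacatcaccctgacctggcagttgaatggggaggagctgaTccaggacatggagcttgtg
H2-Q1, chr17:35323120-35323209, plus strand: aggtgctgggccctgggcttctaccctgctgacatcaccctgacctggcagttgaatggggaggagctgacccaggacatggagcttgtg
H2-Q4, chr17:35382914-35383003, plus strand: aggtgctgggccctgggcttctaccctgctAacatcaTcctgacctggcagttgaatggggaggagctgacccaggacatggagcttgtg
H2-T23, chr17:36030952-36031041, minus strand: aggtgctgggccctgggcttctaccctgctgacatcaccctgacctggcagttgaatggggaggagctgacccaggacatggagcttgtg
H2-M3, chr17:37272325-37272414, plus strand: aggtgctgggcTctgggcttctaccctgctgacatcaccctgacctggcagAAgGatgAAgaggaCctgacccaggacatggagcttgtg
H2-Q1 and H2-T23 had 0 differences from H2-D1 here, H2-K1 had 1, H2-Q4 had 2 and H2-M3 had 7. The longest exact stretch that the coding sequence of H2-D1 shared was 184 bases with H2-Q1, 145 with H2-T23, 91 with H2-K1, 72 with H2-Q4 and 39 with H2-M3. Of all 50-base stretches of its transcripts, another gene held 15% for H2-Q1, 14.5% for H2-T23, 12.8% for H2-D1, 9.63% for H2-K1 and 0.576% for H2-M3. The share was 36.4% for H2-Q4, 50.4% for H2-T10 and 25.9% for H2-DMb2, and 0 for Cd74, H2-Ab1, H2-Eb1, H2-Ea-ps and B2m. Of the 53 members with a transcript in GENCODE M21, 24 had at least 10% of their 50-base stretches in another gene. This is a share of reference sequence and not of reads, and its effect on the counts was not tested. H2-L, H2-Q8, H2-Q9 and H2-T9 have no transcript there, so stretches shared with them were not counted. The exons of 17 members also overlap another gene, for example H2-DMa with Brd2 and Erap1 with Cast, and without strand their reads cannot be told apart.

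Depth was 23531330 to 26071229 counts per library, so that 3 counts, the limit that a count of 0 allows, stood for 0.116 to 0.127 CPM, the count scaled to library size; this limit covers counting error only. Abca3 itself, the targeted gene, was at 571, 611 and 606 CPM in Abca3 cKO libraries, against 635, 694 and 689 CPM in control libraries (log2 fold change -0.17, edgeR adjusted p = 0.696); the files do not show which of its reads come from deleted exons, so this level does not check the genotype labels. The 10 AT2 markers, Abca3 among them, summed to 72799 to 84239 CPM in Abca3 cKO libraries and 64836 to 76022 CPM in control libraries. Singly, 7 of the 10 had an unadjusted p under 0.05 in edgeR, where 9.23% of all genes tested did. Of these 7, 6 were higher in Abca3 cKO libraries and Sftpc was lower (log2 fold change -0.36). Napsa passed the adjusted threshold (log2 fold change 0.66, edgeR adjusted p = 0.0265). Control replicate 2 stood apart in Xist, at 2345 CPM against 5.36 to 9.36 CPM in the other 5 libraries.

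No MHC or antigen processing gene passed the test. Of the 57 members, 34 passed the filter on low counts and were tested with edgeR's quasi-likelihood test, and 0 had a Benjamini-Hochberg adjusted p under 0.05, where 0.38% of the 14477 genes tested did. At an unadjusted p under 0.05 there were 6 of the 34 members tested (17.6%), against 9.23% of all genes tested. Of these 6, Cd74, H2-DMa, H2-Ea-ps and H2-Q1 were higher in Abca3 cKO libraries, where 5.07% of all genes tested were, and Erap1 and H2-T23 were lower, where 4.16% were. DESeq2 called 1 of the 34 members, H2-Ea-ps, and 1.67% of all genes tested. The values of both groups did not overlap for 6 members, against 14.1% of all genes tested: H2-DMa, H2-Ea-ps and H2-Q1 were higher in every Abca3 cKO library, and H2-Eb1, H2-T23 and Tap2 were lower. The log2 fold change was above 0 for 21 members and below 0 for 13, while it was above 0 for 50.3% of all genes tested. Its median over the 34 members was 0.07, beside 0.0018 over all genes tested. The 22 tested rows of the class I group had a median of 0.07 and the 10 tested rows of the class II group a median of 0.08. On simulated counts with the means and depths of these libraries, the test called 28% of genes changed 1.5-fold, 72% of genes changed 2-fold and 96% of genes changed 3-fold. The changed genes were drawn only from better expressed genes, so these shares do not cover low members such as H2-Ea-ps, Nlrc5 and Tap2. They are also averages over genes drawn at random. They therefore do not apply to members that varied widely within a group, such as H2-Q1 (SE 0.71), H2-Eb1 (SE 0.91) and H2-D1 (SE 0.42). In that simulation 14 unchanged genes were also called, and 4 genes were called when none was changed. Since these are bulk libraries, fewer cells with a transcript and less of it per cell cannot be told apart.

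**Figure D1:**
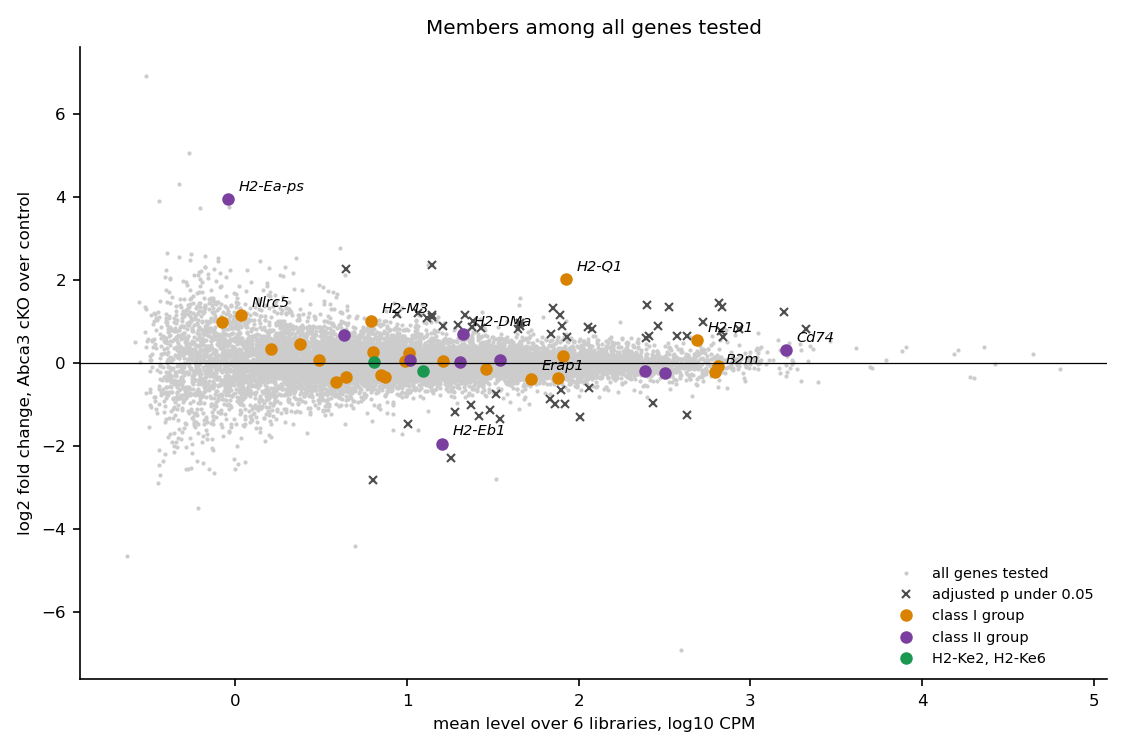
Log2 fold change, Abca3 cKO over control (vertical axis), against mean level in log10 CPM (horizontal axis) for all 14477 genes tested, with the 34 tested MHC and antigen processing genes in colour and genes with an adjusted p under 0.05 as crosses. Among the members, H2-Ea-ps at 3.95 and H2-Q1 at 2.03 stand highest and H2-Eb1 at -1.94 lowest.

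The invariant chain dominated the class II genes. Cd74, which escorts class II chains and blocks their groove until peptide loading, had 1846, 1612 and 1877 CPM in Abca3 cKO libraries, against 1289, 1255 and 1746 CPM in control libraries. Control replicates 1 and 2 lay below every Abca3 cKO library, and control replicate 3 lay within the Abca3 cKO range. The means were 1778 ± 145 CPM in Abca3 cKO libraries and 1429.7 ± 274 CPM in control libraries (SD, n = 3 each), a log2 fold change of 0.31 (SE 0.14, edgeR adjusted p = 0.507). Per length, its level of 1216 ± 158 RPKM (reads scaled by transcript length and library size) in Abca3 cKO libraries and 1012 ± 219 RPKM in control libraries was the highest of all members. The 10 AT2 markers, which include Abca3, had a median log2 fold change of 0.32 in the same fit, and their part in the value of Cd74 was not tested. Next in Abca3 cKO libraries came B2m at 313 ± 20.7 RPKM, H2-D1 at 260.3 ± 50.1 RPKM, H2-K1 at 213 ± 18.0 RPKM, H2-Ab1 at 211 ± 39.5 RPKM and H2-Aa at 188 ± 31.4 RPKM (SD, n = 3), of which H2-K1, H2-Ab1 and H2-Aa differed by less than their spread.

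The genes of the A molecule, the alpha chain H2-Aa and the beta chain H2-Ab1, overlapped between groups. H2-Aa had 241, 188 and 252 CPM in Abca3 cKO libraries and 242, 251 and 288 CPM in control libraries, a log2 fold change of -0.20 (SE 0.13, edgeR adjusted p = 0.711). On the RPKM scale the sign of its difference was the other way, with 188 ± 31.4 RPKM in Abca3 cKO libraries and 167 ± 34.7 RPKM in control libraries. H2-Ab1 had 329, 255 and 288 CPM in Abca3 cKO libraries, against 314, 294 and 419 CPM in control libraries (log2 fold change -0.24, SE 0.14, edgeR adjusted p = 0.684). Abca3 cKO replicate 2 was the lowest library for both chains, and control replicate 3 the highest. Summed over the class II alpha and beta chains and Cd74, the level was 2420.0, 2059 and 2434 CPM in Abca3 cKO libraries, against 1871, 1827 and 2476 CPM in control libraries, and the groups overlapped.

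The genes of the E molecule differed widely between libraries. H2-Eb1, its beta chain on chromosome 17 at 34305867 to 34316674 (plus strand), had 61, 48 and 383 counts in Abca3 cKO libraries, against 605, 712 and 585 counts in control libraries. This came to 2.57, 1.87 and 15.5 CPM in Abca3 cKO libraries and 25.6, 27.5 and 23.2 CPM in control libraries. Every Abca3 cKO library was below every control library, but Abca3 cKO replicate 3 lay nearer to the controls than to replicates 1 and 2 of its own group. With that spread, the log2 fold change of -1.94 had an SE of 0.91 and a 95% interval of -4.38 to 0.51 (edgeR adjusted p = 0.651). Without Abca3 cKO replicate 3 it was -3.52 with an edgeR adjusted p of 6.34e-05. With any other single library left out it was -1.9996 to -1.49, with edgeR adjusted p of 0.72 to 0.85. Abca3 cKO replicate 3 is the library that stood apart in these same H2-Eb1 values, so the small p without it is no separate test. As a share of its neighbour H2-Ab1 in RPKM, H2-Eb1 stood at 0.339%, 0.255% and 3.02% in Abca3 cKO libraries, against 4.94%, 5.73% and 2.93% in control libraries, so that by this ratio Abca3 cKO replicate 3 was level with control replicate 3.

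H2-Ea-ps, the locus of the E alpha chain, is annotated as a polymorphic pseudogene because some mouse strains carry a working copy and others do not. It lies on chromosome 17 at 34341959 to 34344645 (minus strand). It had 27, 75 and 27 counts in Abca3 cKO libraries, against 0, 1 and 7 counts in control libraries. All 3 Abca3 cKO libraries were above all 3 control libraries, at 1.14, 2.92 and 1.09 CPM in Abca3 cKO libraries and 0, 0.0386 and 0.278 CPM in control libraries. The fitted log2 fold change was 3.95 (SE 0.97, edgeR adjusted p = 0.124), and its size rested on single libraries, with 6.10 without control replicate 3 and 3.33 without Abca3 cKO replicate 2 (edgeR adjusted p = 0.0775 and 0.432). The gene passed the threshold with DESeq2 (log2 fold change 4.02, adjusted p = 0.0039) and in edgeR without the filter on low counts (3.95, adjusted p = 0.0428), and not with limma on RPKM (0.89, adjusted p = 0.253, or 2.55, adjusted p = 0.232, with a pseudocount of 0.1). H2-Ea-ps was highest in Abca3 cKO replicate 2, the library where H2-Eb1 was lowest. The labels name only a mixed background, and whether the libraries differ in H2 alleles was not tested.

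**Figure D2:**
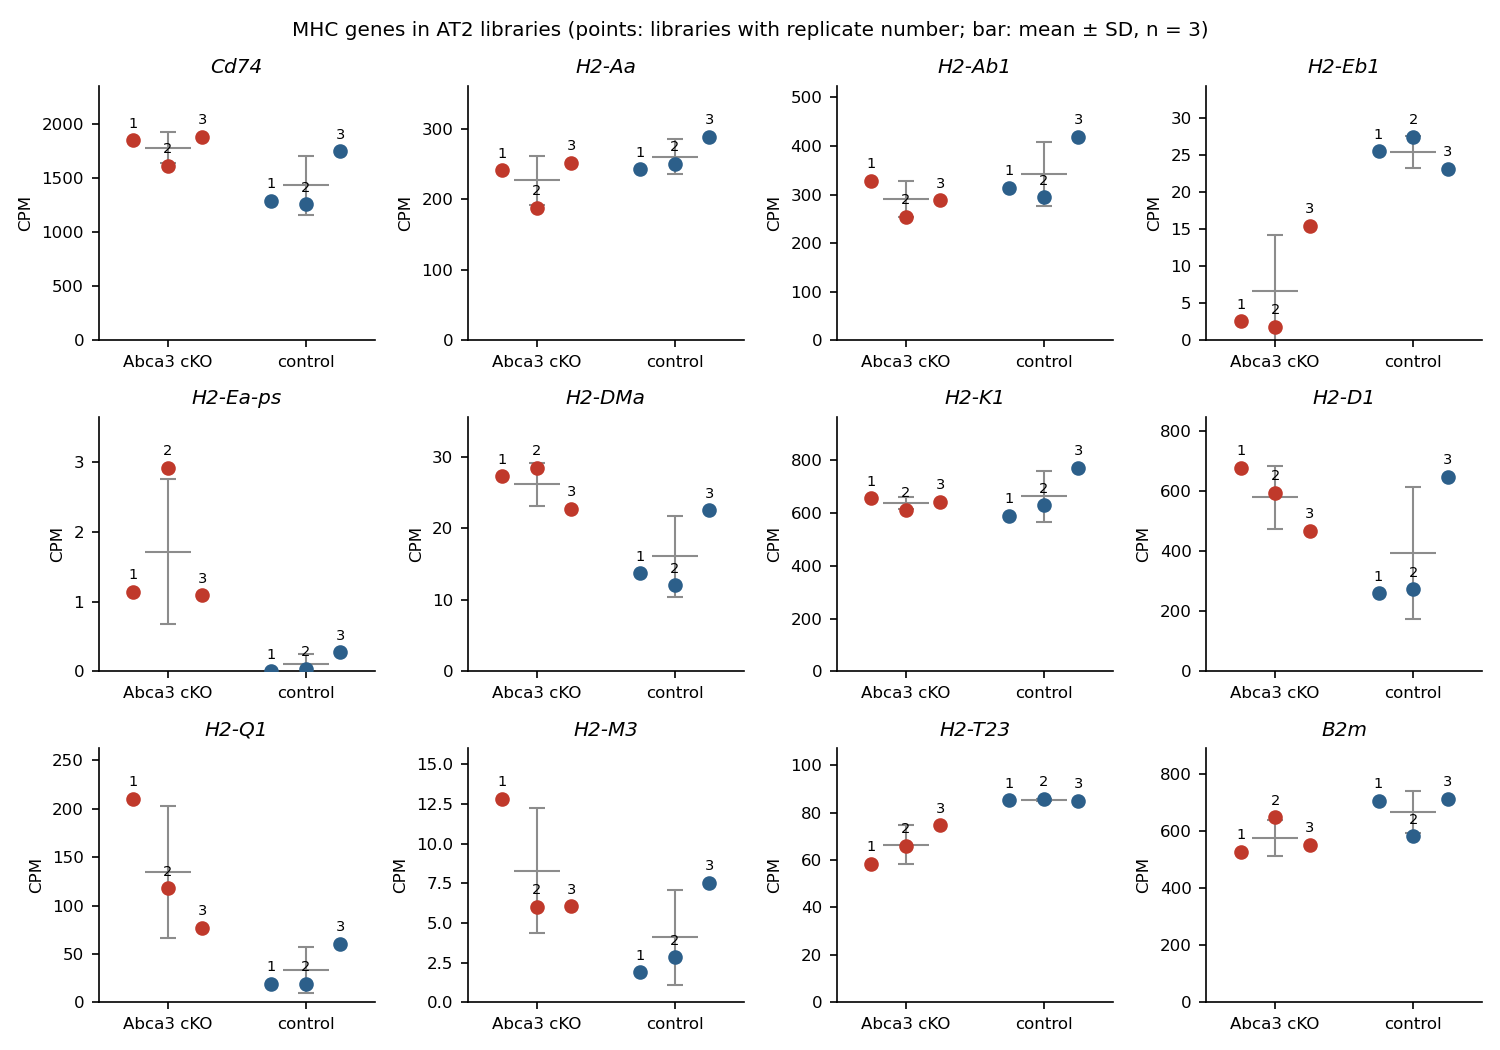
Levels in CPM (vertical axes, linear and starting at 0) of 12 members in each of the 3 Abca3 cKO and 3 control libraries; points are libraries with their replicate number, and bars give the mean ± SD (SD bars that pass below 0 are clipped). In H2-Eb1, Abca3 cKO replicates 1 and 2 are at 2.57 and 1.87 CPM and replicate 3 at 15.5 CPM, while in H2-D1 control replicates 1 and 2 are at 260.5 and 274 CPM and replicate 3 at 649 CPM.

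Peptide exchange on class II molecules is done by H2-DM, built from H2-DMa and either of the beta chains H2-DMb1 and H2-DMb2. H2-DMa had 27.3, 28.4 and 22.7 CPM in Abca3 cKO libraries, against 13.7, 12.01 and 22.5 CPM in control libraries. The groups did not overlap, although control replicate 3 lay close to Abca3 cKO replicate 3. Its log2 fold change was 0.70 (SE 0.22, edgeR adjusted p = 0.279). H2-DMb1 had 21.8, 16.5 and 23.1 CPM in Abca3 cKO libraries and 18.7, 19.7 and 21.8 CPM in control libraries (log2 fold change 0.03), and its groups overlapped widely. H2-DMb2, chosen after its values were seen, had 6.37, 5.37 and 4.12 CPM in Abca3 cKO libraries, against 2.70, 2.63 and 4.52 CPM in control libraries (log2 fold change 0.69, edgeR adjusted p = 0.568). The partners of the H2-DO modulator, H2-Oa and H2-Ob, were among the members with too few counts to test.

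The regulators of class II transcription overlapped between groups. Ciita, the coactivator on which class II expression depends, had 10.1, 12.7 and 9.49 CPM in Abca3 cKO libraries and 10.5, 10.2 and 9.76 CPM in control libraries (log2 fold change 0.09, SE 0.21, edgeR adjusted p = 0.952). Rfx5, a subunit of the factor that binds the X box of MHC promoters, had 39.0, 36.7 and 31.1 CPM in Abca3 cKO libraries and 37.1, 30.6 and 33.2 CPM in control libraries (log2 fold change 0.08, SE 0.15).

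Among the class I heavy chains, the classical genes H2-K1 and H2-D1 differed in how far the control libraries spread. H2-K1 had 657, 612 and 644 CPM in Abca3 cKO libraries, against 589, 629 and 772 CPM in control libraries (log2 fold change -0.06, SE 0.12, edgeR adjusted p = 0.948). H2-D1, on chromosome 17 at 35262730 to 35267499 (plus strand), had 678, 595 and 469 CPM in Abca3 cKO libraries and 260.5, 274 and 649 CPM in control libraries. Control replicates 1 and 2 lay below every other library, while control replicate 3 lay within the Abca3 cKO range. The means were 581 ± 105 CPM in Abca3 cKO libraries and 394 ± 221 CPM in control libraries (SD, n = 3 each), with a log2 fold change of 0.56 (SE 0.42, edgeR adjusted p = 0.799). Without control replicate 3 it was 1.12 with an edgeR adjusted p of 0.0125. With any other single library left out it was 0.33 to 0.69, with edgeR adjusted p of 0.77 to 0.95. Control replicate 3 is the library that stood apart in these same values, so the small p without it is no separate test. The RPKM ratio of H2-D1 to H2-K1 was 1.38, 1.30 and 0.991 in Abca3 cKO libraries, against 0.632, 0.614 and 0.9996 in control libraries, and the 2 replicates numbered 3 were alike.

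H2-Q1, a nonclassical class I gene on chromosome 17 at 35320405 to 35325099 (plus strand), had 210.3, 118 and 77.3 CPM in Abca3 cKO libraries, against 19.3, 19.5 and 60.7 CPM in control libraries. The groups did not overlap, but they came close at replicate 3 of each. The means were 135 ± 68.2 CPM in Abca3 cKO libraries and 33.2 ± 23.9 CPM in control libraries (SD, n = 3 each), and the log2 fold change was 2.03 (SE 0.71, edgeR adjusted p = 0.509). With 1 library left out it ran from 1.56 to 2.80, highest without control replicate 3 (edgeR adjusted p = 0.204). H2-Q1 was also the 1 member among 29 symbols on a separate sheet that the authors deposited, which states no criterion for them. H2-M3, which presents formylated peptides and was chosen after its values were seen, also had its lowest values in control replicates 1 and 2. It had 12.8, 6.03 and 6.06 CPM in Abca3 cKO libraries and 1.90, 2.86 and 7.54 CPM in control libraries (log2 fold change 1.02, SE 0.51, edgeR adjusted p = 0.617). With 1 library left out its log2 fold change ran from 0.56 to 1.80, highest without control replicate 3. Control replicates 1 and 2 were the 2 lowest libraries for 11 of the 34 tested members, an order noticed in these values and not tested: Cd74, H2-D1, H2-DMa, H2-DMb2, H2-Ea-ps, H2-M3, H2-Q1, H2-Q10, Nlrc5, Psmb10 and Tapbp. This was 32.4% of the members, and 8.28% of all genes tested had the same order.

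H2-T23, the gene of Qa-1, which presents leader peptides of other class I chains to NK cell receptors, had 58.4, 66.1 and 74.7 CPM in Abca3 cKO libraries, against 85.3, 85.7 and 84.9 CPM in control libraries. The control libraries were close to each other, and every Abca3 cKO library was below them (log2 fold change -0.36, SE 0.12, edgeR adjusted p = 0.313). In RPKM the gap was wider, with 2.47, 2.47 and 5.10 RPKM in Abca3 cKO libraries and 6.71, 7.45 and 6.50 RPKM in control libraries (limma log2 fold change -0.91 on the log2(RPKM + 1) scale, adjusted p = 0.209). Of the other heavy chain rows at a measurable level, H2-Q4 had 27.0, 26.5 and 29.5 CPM in Abca3 cKO libraries and 29.96, 28.9 and 32.3 CPM in control libraries. H2-T24 had 6.12, 6.97 and 6.87 CPM in Abca3 cKO libraries and 6.93, 7.91 and 10.1 CPM in control libraries, and H2-T10 had 5.36, 7.67 and 5.94 CPM in Abca3 cKO libraries and 8.96, 3.86 and 10.3 CPM in control libraries. The groups overlapped for all 3 of these genes, and also for H2-Bl, H2-K2, H2-Q2, H2-Q5 and H2-Q10, which lay under 6 CPM in every library and had log2 fold changes of 1.004 for H2-Bl, 0.07 for H2-K2, 0.35 for H2-Q2, -0.33 for H2-Q5 and 0.45 for H2-Q10. H2-Ke6 and H2-Ke2 carry the prefix only for their place in the complex; they encode a steroid dehydrogenase and a prefoldin subunit. H2-Ke6 had 10.7, 12.4 and 11.7 CPM in Abca3 cKO libraries and 12.5, 11.4 and 16.1 CPM in control libraries, and H2-Ke2 had 5.49, 8.14 and 5.86 CPM in Abca3 cKO libraries and 4.90, 6.60 and 7.54 CPM in control libraries.

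The 23 members that were not tested include 9 with 0 counts in every library and 14 with at most 16 counts in any library. Counts and RPKM parted for 5 of those 9, H2-Q6, H2-Q7, H2-Q8, H2-Q9 and H2-T9, which were listed with an RPKM above 0 in at least 1 library. H2-Q7, whose gene holds 26.5% of its 50-base stretches in common with other genes, was listed at 1.22, 0.614 and 0.0283 RPKM in Abca3 cKO libraries and 1.72, 1.55 and 2.54 RPKM in control libraries. H2-M1, H2-M10.4, H2-M11 and H2-M9 had 0 counts throughout, and 7 of the 14 with few counts were also H2-M rows (H2-M10.1, H2-M10.2, H2-M10.3, H2-M10.5, H2-M10.6, H2-M2 and H2-M5), the others being H2-Eb2, H2-L, H2-Oa, H2-Ob, H2-T22, H2-T3 and Cd1d1. Cd1d1, which presents lipids to NKT cells, had 2, 13 and 3 counts in Abca3 cKO libraries and 6, 0 and 4 counts in control libraries.

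**Figure D3:**
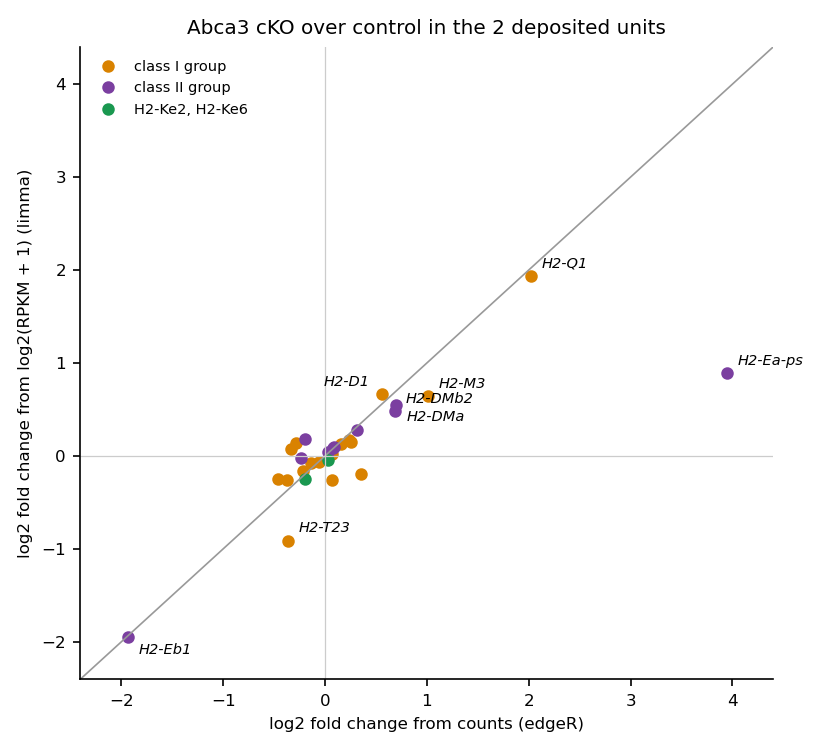
Log2 fold change, Abca3 cKO over control, from counts with edgeR (horizontal axis) and from RPKM with limma on log2(RPKM + 1) (vertical axis) for the members tested on both scales. H2-Eb1 is lowest on both, and H2-T23 lies further from 0 in RPKM (-0.91) than in counts (-0.36).

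None of the parts that class I chains share passed the edgeR test. B2m, the light chain of all class I molecules, had 527, 650.0 and 552 CPM in Abca3 cKO libraries, against 708, 583 and 714 CPM in control libraries (log2 fold change -0.21, SE 0.13, edgeR adjusted p = 0.668). Tap1 and Tap2, the subunits of the peptide transporter, differed in sign. Tap1 had 8.86, 10.6 and 10.3 CPM in Abca3 cKO libraries and 10.4, 6.68 and 11.3 CPM in control libraries (log2 fold change 0.06). Tap2 had 3.88, 3.08 and 2.83 CPM in Abca3 cKO libraries, all below its 4.35, 4.79 and 4.28 CPM in control libraries (log2 fold change -0.46, SE 0.31, edgeR adjusted p = 0.728). Tapbp, the tapasin that bridges Tap and the heavy chain, had 84.3, 94.3 and 77.8 CPM in Abca3 cKO libraries and 74.0, 73.5 and 81.8 CPM in control libraries (log2 fold change 0.16).

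Psmb8, Psmb9 and Psmb10 are the catalytic subunits that turn the proteasome into the immunoproteasome, which cuts peptides suited to class I grooves. Psmb8 had 20.3, 15.1 and 13.9 CPM in Abca3 cKO libraries and 17.9, 10.5 and 18.9 CPM in control libraries, Psmb9 had 13.9, 11.2 and 8.24 CPM in Abca3 cKO libraries and 11.0, 6.60 and 10.6 CPM in control libraries, and Psmb10 had 7.68, 6.54 and 6.58 CPM in Abca3 cKO libraries and 4.77, 5.64 and 6.94 CPM in control libraries. Summed, they came to 41.9, 32.9 and 28.7 CPM in Abca3 cKO libraries, against 33.7, 22.7 and 36.5 CPM in control libraries, and the groups overlapped. Erap1, which trims peptides in the endoplasmic reticulum, had 52.6, 41.4 and 44.6 CPM in Abca3 cKO libraries and 69.4, 60.1 and 50.1 CPM in control libraries (log2 fold change -0.37, SE 0.15, edgeR adjusted p = 0.43). Nlrc5, the coactivator of class I genes, was low, at 0.928, 2.30 and 1.252 CPM in Abca3 cKO libraries and 0.549, 0.232 and 1.23 CPM in control libraries (log2 fold change 1.15, SE 0.71, edgeR adjusted p = 0.684). With 1 library left out its log2 fold change ran from 0.70 to 1.93, highest without control replicate 3 (edgeR adjusted p = 0.52).

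**Figure D4:**
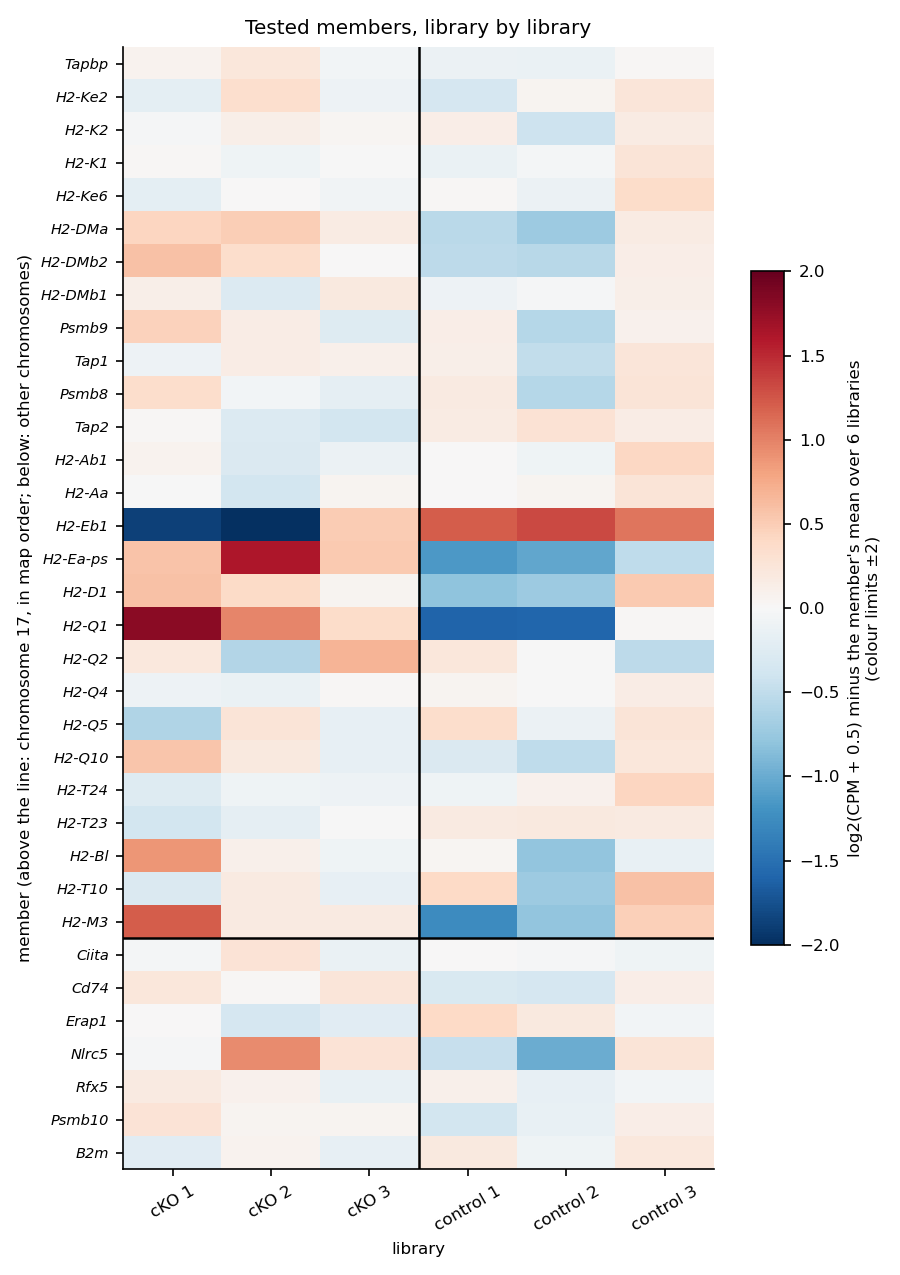
Level of each of the 34 tested members (rows) in each library (columns, Abca3 cKO left of control) as log2(CPM + 0.5) minus the mean of the member over the 6 libraries, with chromosome 17 members in map order above the line and the others below. H2-Eb1 is low in Abca3 cKO replicates 1 and 2, while H2-D1, H2-Q1 and H2-M3 are low in control replicates 1 and 2.

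Abca3 lies on the same chromosome as the H2 complex, and the strain background is mixed. Of the 53 members with a position, 45 are on chromosome 17 within 3.57 Mb, and this stretch begins 9.51 Mb beyond the end of Abca3. From Abca3 to the last H2 member, 301 genes were tested with edgeR, and 1 of them, Pim1, had an adjusted p under 0.05, while 9.63% had an unadjusted p under 0.05. Over all 13701 tested genes with a position, 55 were called and 9.36% had an unadjusted p under 0.05, 706 higher and 577 lower in Abca3 cKO libraries. Between the first and the last member, 94 tested genes are not members, and 8 of these (8.51%) reached an unadjusted p under 0.05, with 7 higher in Abca3 cKO libraries and 1 lower. Whether Abca3 cKO and control mice differ in alleles along this stretch was not tested.

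Promoter windows of 300 bases, 250 before and 50 after the annotated start, were available from RefSeq (GRCm38.p6) for 39 of the 57 members. The windows of H2-Aa and H2-Eb1, and of H2-K1 and H2-D1, pairs of related genes, are shown from 150 bases before the start to the base before it, on the strand of the gene, with capitals for the Y box (CTGATTGG, or CCAATCAG on the other strand), the core of the X2 box (TGACG or CGTCA) and the interferon response sequence (TTTCACTTC or GAAGTGAAA).
H2-Aa, chr17:34287824-34287973, minus strand: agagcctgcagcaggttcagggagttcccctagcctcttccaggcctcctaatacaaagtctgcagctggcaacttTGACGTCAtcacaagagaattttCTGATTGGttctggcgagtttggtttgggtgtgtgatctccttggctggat
H2-Eb1, chr17:34305717-34305866, plus strand: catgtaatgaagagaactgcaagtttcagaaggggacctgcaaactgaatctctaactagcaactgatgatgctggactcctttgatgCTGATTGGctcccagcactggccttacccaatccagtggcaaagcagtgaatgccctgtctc
H2-K1, chr17:34000348-34000497, minus strand: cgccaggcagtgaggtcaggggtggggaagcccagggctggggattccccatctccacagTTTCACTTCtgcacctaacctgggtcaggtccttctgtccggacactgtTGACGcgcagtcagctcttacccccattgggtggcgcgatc
H2-D1, chr17:35262944-35263093, plus strand: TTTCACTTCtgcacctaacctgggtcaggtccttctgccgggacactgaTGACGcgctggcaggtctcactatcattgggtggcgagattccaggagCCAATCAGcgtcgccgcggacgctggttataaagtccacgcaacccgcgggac
The Y box letters were in 19 of the 39 member windows (48.7%) and in 4.1% of all 32851 promoter windows. The X2 core letters were in 15 member windows (38.5%) and 20.8% of all windows, and the interferon response letters in 7 member windows (17.9%) and 0.505% of all windows. Those 7 were H2-K1, H2-D1, H2-Q4, H2-Q6, H2-Q7, H2-Q10 and H2-M3. H2-D1 and H2-K1 both hold the interferon response and X2 letters in the stretches shown. The RefSeq start of H2-D1 lies inside the GENCODE gene given above, so its stretch falls within that GENCODE span. The H2-D1 stretch also holds the Y box letters, which the H2-K1 window holds only past the annotated start. These are matches of letters in the reference and do not show binding.

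Other genes of the pathway were taken as 6 lists of 74 genes, of which 66 were tested; with edgeR 0 passed at an adjusted p under 0.05 and 9 (13.6%) at an unadjusted p under 0.05, where 9.23% of all genes tested did. DESeq2 called 1 of them, Socs3 (log2 fold change 0.71, adjusted p = 0.0482), and 1.67% of all genes tested. For class I peptide supply and loading, 2 of 15 tested genes had an unadjusted p under 0.05, both higher in Abca3 cKO libraries. Pdia3, a disulfide isomerase of the loading complex, had 692, 535 and 544 CPM in Abca3 cKO libraries and 472, 478 and 454 CPM in control libraries (log2 fold change 0.33, edgeR adjusted p = 0.38), and the chaperone Calr had 231, 176 and 130.1 CPM in Abca3 cKO libraries and 117, 134 and 148 CPM in control libraries (log2 fold change 0.43, edgeR adjusted p = 0.493). Of 10 tested genes of class II processing and turnover, 1 was lower at that level. This was March8, a ubiquitin ligase of surface proteins, at 74.4, 69.3 and 64.9 CPM in Abca3 cKO libraries and 91.8, 90.7 and 91.3 CPM in control libraries (log2 fold change -0.39, edgeR adjusted p = 0.206). Named after their values were seen, the endosomal proteases differed widely in level, with Ctsh at 739.97 to 1197 CPM and Ctsl at 189 to 222 CPM over all libraries, and Ctss, the protease that cuts Cd74 in many professional antigen-presenting cells, at 0 to 1.81 CPM.

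Of 12 tested genes of MHC transcription, Zxdc, a partner of Ciita, was lower at an unadjusted p under 0.05, at 39.2, 44.0 and 33.4 CPM in Abca3 cKO libraries and 42.3, 54.2 and 55.0 CPM in control libraries (log2 fold change -0.38, edgeR adjusted p = 0.441). Interferon-gamma is the main inducer of both MHC classes, and 4 of 14 tested genes of its signal (28.6%) had an unadjusted p under 0.05, 3 higher and 1 lower. Over all genes tested it was 9.23%. Socs3, an inhibitor of cytokine signals, had 38.2, 57.9 and 35.8 CPM in Abca3 cKO libraries and 25.9, 32.7 and 21.9 CPM in control libraries (log2 fold change 0.71, edgeR adjusted p = 0.218). The kinase Jak2 had 112, 119 and 137 CPM in Abca3 cKO libraries and 101, 95.4 and 102 CPM in control libraries, and the transcription factor Irf8 had 5.87, 8.06 and 2.95 CPM in Abca3 cKO libraries and 2.96, 1.85 and 3.69 CPM in control libraries. The receptor chain Ifngr2 was the lower one, at 23.3, 24.6 and 19.8 CPM in Abca3 cKO libraries and 35.6, 37.6 and 21.9 CPM in control libraries. Of the MHC-like proteins 0 of 8 had an unadjusted p under 0.05 in edgeR. Of the costimulators and checkpoint ligands 1 of 7 did, Tnfsf9, at 2.95, 3.19 and 3.35 CPM in Abca3 cKO libraries and 4.48, 9.81 and 4.68 CPM in control libraries (log2 fold change -0.997, edgeR adjusted p = 0.339). The classical costimulators were near the limit of detection, with Cd86 at 0 counts in every library and Cd80 at 0 to 0.364 CPM.

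Some leukocytes carry much class II, and the sums of their markers are given beside the class II genes. Cd74, H2-Aa and H2-Ab1 each lay above the sum of every leukocyte list in every library, while the other class II genes, H2-Eb1, H2-DMa and Ciita among them, lay below the sum of the macrophage list. The 5 pan-leukocyte markers summed to 0.848 to 2.14 CPM in Abca3 cKO libraries and 1.51 to 3.28 CPM in control libraries, with Ptprc highest and 4 of the 5 under 1 CPM in every library. The dendritic cell list of 10 genes summed to 10.2 to 11.8 CPM in Abca3 cKO libraries and 9.88 to 11.8 CPM in control libraries, with Flt3, Cd209a and Batf3 at 0, Xcr1 highest and 8 of the 10 under 1 CPM in every library. Xcr1 made up most of this sum, at 6.88 to 9.46 CPM, but was listed at only 0.0162 to 0.122 RPKM, so this sum is uncertain. The B cell list of 8 summed to 15.0 to 23.2 CPM in Abca3 cKO libraries and 17.8 to 19.1 CPM in control libraries, with Pax5 and Blk at 0, Fcer2a highest and 5 of the 8 under 1 CPM in every library. The macrophage list, with 13 of 14 genes in the table, summed to 57.7 to 72.7 CPM in Abca3 cKO libraries and 78.3 to 90.2 CPM in control libraries without overlap. C1qa and C1qc were at 0 and Csf1r was highest, and 7 of the 13 stayed under 1 CPM in every library. The 10 T and NK cell markers were all under 1 CPM in every library, summing to 0.38 to 1.05 CPM in Abca3 cKO libraries and 0.754 to 1.39 CPM in control libraries, with Cd8a highest by its mean over the 6 libraries, and the neutrophil list summed to 7.55 to 12.6 CPM in Abca3 cKO libraries and 7.65 to 12.8 CPM in control libraries, with Csf3r highest. The part of other cells in the values of the MHC genes was not tested.

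**Figure D5:**
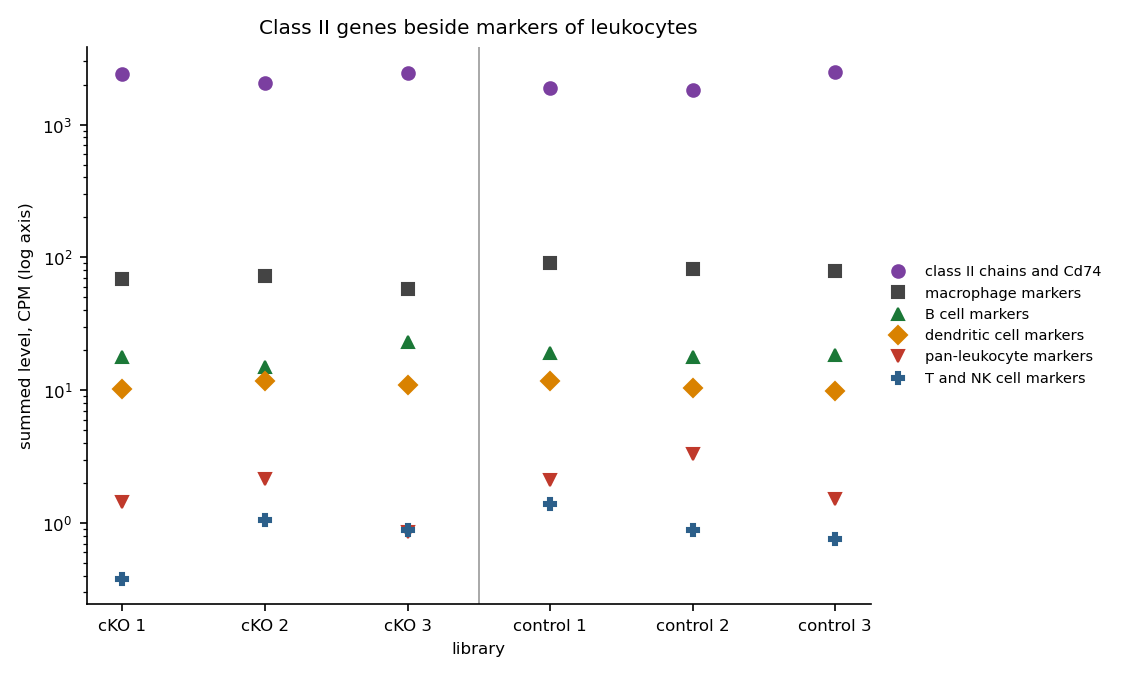
Summed CPM per library (logarithmic vertical axis) of the class II chains with Cd74 and of the leukocyte marker lists, Abca3 cKO libraries left of control libraries. The class II sum is at 1827 to 2476 CPM in every library, and the pan-leukocyte sum at 0.848 to 3.28 CPM.

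Of the epithelial and vessel lists, club and ciliated cell markers summed to 52296 to 81687 CPM in Abca3 cKO libraries and 63263 to 81642 CPM in control libraries, with Scgb1a1 highest. The AT2 list summed to 64836 to 84239 CPM over all libraries. Scgb1a1 alone had 48096 to 75051 CPM, yet its RPKM was listed as 0 in Abca3 cKO replicate 1 and control replicate 2. AT1 markers summed to 1898 to 2693 CPM in Abca3 cKO libraries and 2499 to 3304 CPM in control libraries, with Clic5 highest, and endothelial markers to 43.7 to 88.8 CPM in Abca3 cKO libraries and 57.8 to 99.3 CPM in control libraries, with Kdr highest. All 8 AT1 markers were lower in Abca3 cKO libraries (median log2 fold change -0.34). Of these, 3 (37.5%), Hopx, Akap5 and Clic5, had an unadjusted p under 0.05 in edgeR, where 9.23% of all genes tested did.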

How the data were processed

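Per the labels' protocols, Nextera XT libraries were built from RNA amplified with a NuGEN Ovation v2 kit, which does not mark strand. The authors deposited whole-number read counts per gene, not normalized, and RPKM values, scaled by transcript length and depth. TopHat2 2.0.8 and Bowtie2 2.1.0 are listed, with Cufflinks 2.0.2 and DESeq, per the submitters' processing notes, and the build is mm10 (GRCm38). Which counter and annotation were used, and how reads that match several genes were treated, is not given in the sources. Such reads may be dropped or split among the H2 genes.

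Counts of all genes were fitted with edgeR 4.0.16 in R 4.3.3 (TMM scaling, filterByExpr, robust quasi-likelihood F test, two-sided, Benjamini-Hochberg adjustment over all 14477 genes tested, threshold 0.05), with 3 libraries per group and no covariates. CPM are counts scaled to the TMM-adjusted library size. DESeq2 1.42.0 and limma 3.58.1 on log2(RPKM + 1), for genes with a mean RPKM of at least 0.5, were alternatives, as were a replicate block, RLE scaling, no scaling, no filter and leaving out each library. The fit was tested on simulated data. All 57 members are accounted for; values per library are given for the main genes of each class, for members with an unadjusted p under 0.05 or groups that did not overlap, and for the most abundant H2 rows. The members and lists were chosen with earlier results of these data known. No 2 libraries of a group repeated each other (chi-square per degree of freedom 30.5 to 52.1).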

Additional observations from a re-analysis of the deposited data

How the results depend on the processing

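The number of genes with an adjusted p under 0.05 was 55 in the edgeR fit, and 132 without the filter on low counts, 241 with DESeq2, 26 with limma on RPKM, 27 with a pseudocount of 0.1, 2 on unfiltered RPKM and 21 to 50 when 1 library was left out. Called members numbered 0 in the edgeR fit, 1 without the filter and 1 with DESeq2 (H2-Ea-ps in both), and 0 to 1 with 1 library left out (H2-Eb1 without Abca3 cKO replicate 3, H2-D1 without control replicate 3). With 1 library left out, members at an unadjusted p under 0.05 in edgeR numbered 3 of 35 tested (without control replicate 1) to 11 of 35 (without control replicate 3), against 6 of 34. Over all genes tested, 1102 of 14833 reached it without control replicate 1 and 1314 of 14808 without control replicate 3, against 1336 of 14477. DESeq2 called 1 other gene of the pathway (Socs3). From Abca3 to the last H2 member, 1 gene was called in the edgeR fit, 2 without the filter, 5 with DESeq2, 0 on unfiltered RPKM and 0 to 2 with 1 library left out. The class II median was 0.31 without the filter, and the class I median -0.11 to 0.20 with 1 library left out. The log2 fold change had the other sign on RPKM for H2-Aa (0.18 in all 3 RPKM fits), H2-T10 (0.14, 0.42 with the pseudocount of 0.1, 0.14 unfiltered) and H2-Ke2 (-0.045, -0.047 and -0.045). In the limma fit on log2(RPKM + 1) it also had the other sign for H2-K2 (-0.255, against 0.073 in counts), H2-Q2 (-0.193, against 0.351) and H2-Q5 (0.073, against -0.331). With 1 library left out it spanned 0 for Ciita (-0.049 to 0.17), H2-DMb1 (-0.070 to 0.16), H2-K1 (-0.14 to 0.062), Tap1 (-0.14 to 0.21), Psmb8 (-0.16 to 0.21) and H2-Ke2 (-0.16 to 0.17). The causes were not tested. Depth limits members under 0.127 CPM.

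Libraries with the same replicate number did not deviate together (correlations of 0.096, -0.032 and -0.046). With the replicate block, 33 genes, 0 members and 0 genes from Abca3 to the last H2 member were called.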
